A study of Mus musculus with 28 samples.

Results

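The comparison described here set the hearts of mice infarcted on postnatal day 7 and collected 3 days later (7d-MI + 3, 4 libraries) against hearts infarcted on postnatal day 1 and collected after the same 3 days (1d-MI + 3, 4 libraries). The members were chosen by the treatment and age labels alone, and they make up 8 of the 28 RNA-seq libraries of the series. Myocardial infarction (MI) was induced by ligation of the left anterior descending coronary artery (LAD), which supplies the front wall of the left ventricle. All pups were of the outbred stock Hsd:ICR(CD-1), described as male in the study's methods. Every library was made from left ventricular wall of the remote zone, which is muscle away from the infarct. The hearts were 4 days old in 1d-MI + 3 and 10 days old in 7d-MI + 3 at collection. Age at injury and age at collection cannot be told apart between them. The sham-operated hearts of the same ages (1d-SHAM + 3 and 7d-SHAM + 3, 4 libraries each) are therefore given beside many of the results. Where no sham value is given, the same difference may be present in sham-operated hearts. Whether the age difference itself differed between infarcted and sham-operated hearts was tested too. Each library carries its own mouse name in the labels, but nothing more is said of how the mice were raised. The p-values measure the spread between these libraries.

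The neonatal mouse heart can replace lost muscle because its cardiomyocytes still divide, and this ability is lost within days of birth. Over the same days cardiomyocytes leave the cell cycle, exchange fetal sarcomere proteins for adult ones, build the membrane system that couples excitation to calcium release, and grow by enlargement. After an infarct, resident fibroblasts are activated, divide and secrete collagen, fibronectin and matricellular proteins. TGF-beta, which is stored in the matrix in a latent form, is the best known inducer of that programme. Tissue away from the infarct takes part in the response through altered load and circulating signals. The sections that follow take cell division first, then the muscle itself, growth factors and imprinted genes, the stroma and the signals that act on it, vessels, and cell machinery and metabolism.

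The 16 libraries of the 3-day follow-up held between 33077962 and 51942648 counts each. Values are CPM (counts per 1000000 library counts) after TMM scaling, the edgeR method that equalises the bulk of genes between libraries, and they are not corrected for gene length. The cardiomyocyte markers Myh6, Tnnt2, Actc1 and Ttn were among the abundant transcripts in all 8 libraries. Myh6 was at 4761, 2591, 4270.4 and 3036 CPM in 1d-MI + 3 and at 6021, 4663, 11889 and 5134 CPM in 7d-MI + 3. The third 7d-MI + 3 library stood apart with the most Myh6 and, at 42055 CPM against 14921 to 17374 CPM in the other 3, the most Ttn. A low-level background differed more. The 1381 olfactory, vomeronasal and taste receptor genes, which heart should not transcribe, summed to 98.8, 168, 40.3 and 67.7 CPM in 1d-MI + 3. In 7d-MI + 3 they summed to 18.2, 22.5, 18.2 and 23.7 CPM. Between 27324 and 35932 genes had a count in 1d-MI + 3, against 21183 to 22316 in 7d-MI + 3. Results that rest on low counts are therefore given also without the 2 libraries of highest background, the first and second of 1d-MI + 3. This alternative was chosen after seeing the data. One 1d-SHAM + 3 library showed Xist at 87.6 CPM and Ddx3y at 0.123 CPM, against at most 0.964 and at least 71 CPM in the other 1d-SHAM + 3 libraries. It was kept, and its effect is among the libraries left out in turn.

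**Figure D1:**
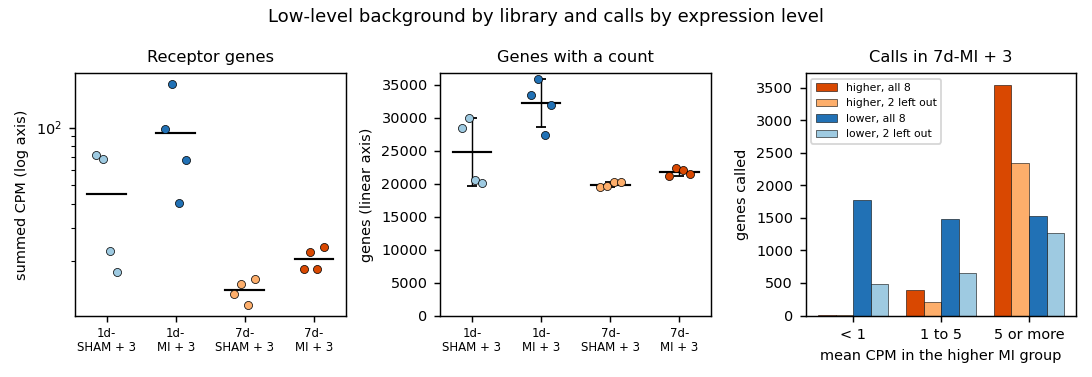
Summed CPM of 1381 receptor genes (left, log axis) and number of genes with a count (middle) in each library of the 4 groups of the 3-day follow-up. Horizontal lines are means, and vertical bars in the middle panel are SD (n = 4). The right panel counts the genes called higher and lower in 7d-MI + 3 by their mean CPM in the higher group, with all 8 infarcted libraries and without the 2 of highest background: below 1 CPM, 1768 genes were called lower and 15 higher.

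Expression differed widely between the 2 ages of infarcted heart. Of 20345 genes tested, 8745 (43%) passed edgeR's quasi-likelihood test at an adjusted p under 0.05, with 3956 (19.4%) higher and 4789 (23.5%) lower in 7d-MI + 3. Among the 9754 genes with a mean of at least 5 CPM in the higher group the balance was the opposite, 3543 higher and 1535 lower. Of these, 2344 and 1264 passed also without the 2 libraries of highest background. Genes with a mean under 1 CPM in the higher group contributed 1768 of the lower calls. Without these 2 libraries 480 of them passed, and all 1768 kept their sign. Over all genes tested, 24.8% were called without them (12.7% higher, 12.1% lower), and 41.8% with the receptor-gene background subtracted (19.4% higher, 22.4% lower). The split also depended on the scaling, with 45.2% of calls higher with TMM and 27.3% with upper-quartile scaling. The latter moved the median log2 fold change of all genes from -0.13 to -0.37. Gene lists below are therefore read against the median of -0.13.

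Sham-operated hearts of the same ages differed in fewer genes, 4125 of 20345 (20.3%), of which 1652 (8.12%) were higher and 2473 (12.2%) lower in the older hearts. Of the genes called higher in 7d-MI + 3, 941 of 3956 (23.8%) were also called higher in 7d-SHAM + 3. Of the lower genes, 1184 of 4789 (24.7%) were also called lower. With the mouse name prefix as a random effect in limma-voom, 1221 genes were called in sham. The 1d-SHAM + 3 libraries divided by that prefix. Genes with a count were 28454 and 30025 under 1 prefix and 20612 and 20069 under the other. In 7d-SHAM + 3 they were 19446 to 20239. This spread enters the test of each sham difference. The age difference itself differed between infarcted and sham-operated hearts at 2662 genes (13.1%). That count was 864 with the same random effect and 1331 without the 2 libraries of highest background. It was more positive after MI at 1833 (9.01%) and more negative at 829 (4.07%). Libraries of the 2 infarcted groups did not overlap at 3740 genes in the higher direction (18.4%) and at 4408 in the lower direction (21.7%). These percentages are the background for the counts of list members that follow. With upper-quartile scaling the difference was called positive at 1019 and negative at 1753, 36.8% positive against 68.9% with TMM. For each count of 0 given below for a list, at most 2 members passed an unadjusted p of 0.05 in that direction, at most 1 passed by DESeq2 and 0 by limma-voom. Where all 8 values of a gene are given, the infarcted groups did not overlap, except at Myh6. Where ranges are given, an overlap can be read from them.

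**Figure D2:**
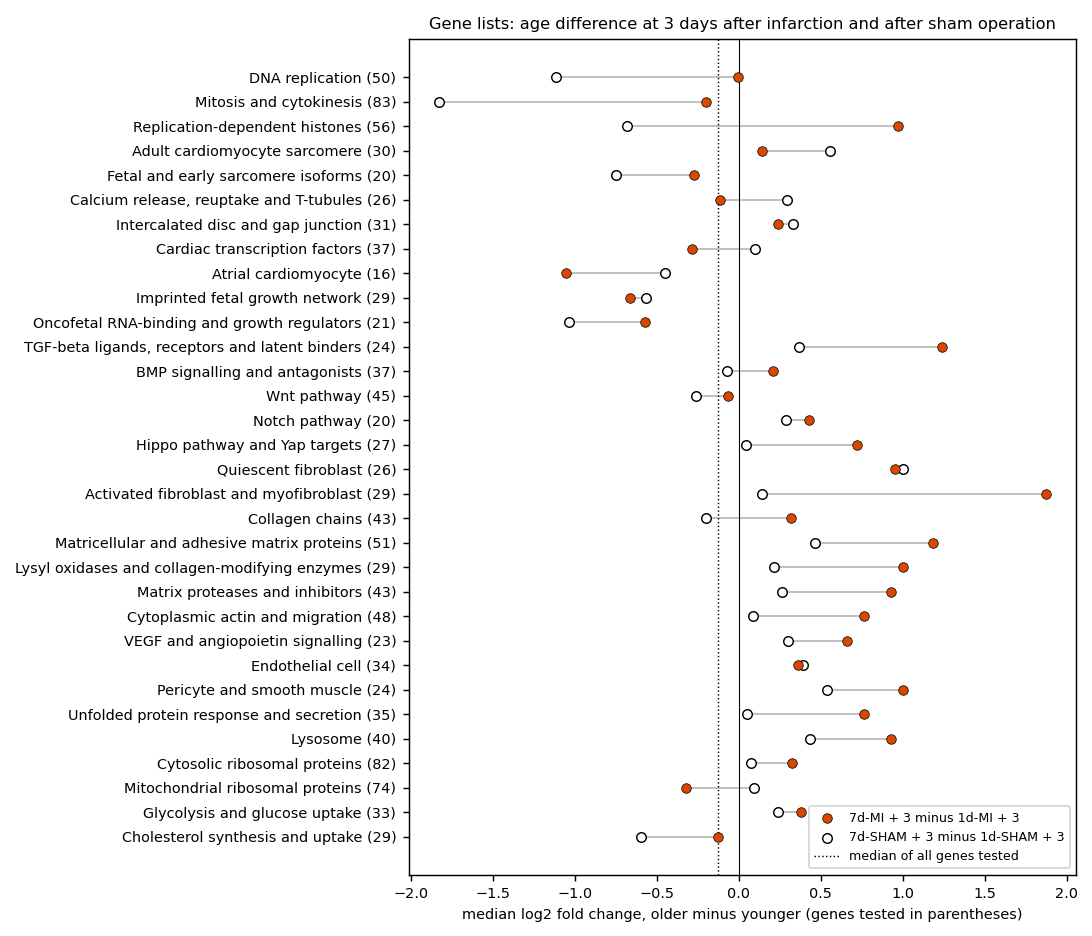
Median log2 fold change of 32 gene lists, older minus younger, in infarcted hearts (filled) and sham-operated hearts (open); the dotted line is the median of all genes tested, -0.13 in both. The activated fibroblast list lies farthest to the right after MI (1.87, against 0.14 in sham), and the mitosis list farthest to the left in sham (-1.83, against -0.20 after MI).

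Leaving out inflammatory and mitochondrial genes, the largest increases among named genes with a mean of at least 5 CPM in the higher group combined a muscle actin, matrix proteins and myeloid genes. Acta1, which encodes the actin of skeletal muscle and of the fetal and overloaded heart (chromosome 8, 123891769 to 123894751, GRCm38), was measured at 56.1, 11.5, 33 and 26.4 CPM in 1d-MI + 3 and at 198, 195, 384 and 409 CPM in 7d-MI + 3. Acta1 gave 3.22 ± 0.59 as log2 fold change (SE, adjusted p = 0.00099). Every older infarcted heart was far above every younger one, while the sham-operated hearts showed 4.13 to 25.6 and 8.84 to 25.4 CPM. Arg1, arginase, which marks reparative myeloid cells (chromosome 10, 24915221 to 24927484), was at 3.04, 5.94, 0.576 and 5.59 CPM in 1d-MI + 3 and at 56.9, 65, 29.4 and 41.1 CPM in 7d-MI + 3. Arg1 gave 3.67 ± 0.60 as log2 fold change (SE, adjusted p = 0.00044). The matricellular protein Ccn5 (3.21 ± 0.49), the cartilage intermediate layer protein Cilp, a fibroblast product of pressure-loaded hearts (3.10 ± 0.46), the latent TGF-beta binding protein relative Ltbp2 (2.97 ± 0.35) and the collagen chain Col1a1 (2.95 ± 0.21) all rose on the log2 scale. Their adjusted p were 7.1e-05, 6.6e-05, 1e-05 and 3.8e-08. Cilp rose with age in sham too, 2.1 (adjusted p = 0.01), with a difference of 0.96 (adjusted p = 0.41). The metalloprotease Adam8 of myeloid cells (2.94 ± 0.52) also rose, as did the row labelled Apol7d, an apolipoprotein L family symbol (2.97 ± 0.33). Its reads may be shared with near copies. The coordinates of that row (chromosome 1, 71652837 to 71662843) overlap those of Fn1 (71585520 to 71653200), which was itself higher. The part of Fn1 reads in the Apol7d value was not tested, so it is not read as a separate gene. Tpm3-rs7 (log2 fold change 3.07 ± 1.09 (SE), adjusted p = 0.038) is a retrocopy of a tropomyosin gene and may share its parent's reads. Its call was lost without the first, the third or the fourth of 1d-MI + 3, or the first, the second or the fourth of 7d-MI + 3. The second 1d-MI + 3 library held 6.68 CPM against 0.198 to 0.545 CPM in the other 3.

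Under the same limits, which leave out predicted genes and clones, the largest decreases were led by Ryr1, the ryanodine receptor of skeletal muscle (chromosome 7, 29003344 to 29125179), at 7.42, 10.9, 1.71 and 3.29 CPM in 1d-MI + 3 and at 0.149, 0.174, 0.0784 and 0.174 CPM in 7d-MI + 3. For Ryr1 the log2 fold change was -5.31 ± 1.21 (SE, adjusted p = 0.0054). It followed the receptor-gene background across the 1d-MI + 3 libraries, highest in the second and lowest in the third. Bex4, a small X-linked gene of embryonic tissues (chromosome X, 136138996 to 136140443), did not follow it. Its values were 9.34, 9.63, 11.5 and 9.44 CPM in 1d-MI + 3 and 0.743, 1.39, 0.509 and 1.48 CPM in 7d-MI + 3 (log2 fold change -3.28 ± 0.30 (SE), adjusted p = 2.2e-07). Myh7b, a slow-tonic type myosin heavy chain gene that carries a muscle microRNA (chromosome 2, 155611212 to 155634307), was at 22.8, 18.3, 31.9 and 27.8 CPM in 1d-MI + 3 and at 2.32, 2.44, 2.74 and 4.12 CPM in 7d-MI + 3. Myh7b gave -3.12 ± 0.48 as log2 fold change (SE, adjusted p = 0.0002). Igf2os, an antisense transcript at the Igf2 locus (-3.14 ± 0.29), the relaxin receptor Rxfp1 (-2.92 ± 0.41), the integrin subunit Itgad (-3.0 ± 0.40), Mroh2a (-3.03 ± 0.64), Dcpp2 of a cluster of near copies (-4.61 ± 1.41) and the small nucleolar RNA Snora81, which lies inside a host gene (-3.01 ± 0.50), fell on the log2 scale. In sham, older hearts were lower too for Ryr1 (-8.45), Bex4 (-2.54), Myh7b (-1.93), Igf2os (-1.79) and Rxfp1 (-1.87). So were Itgad (-1.43), Dcpp2 (-4.17) and Snora81 (-2.30), with adjusted p from 1.1e-05 to 0.043. Mroh2a gave -2.04 in sham (adjusted p = 0.0503). The difference from sham was called for Igf2os and not for the others of these genes. The counting setting for strand and for reads shared between genes is not given in the sources used here, so antisense, nested and copied genes are uncertain. Gbp4, an interferon-induced GTPase (log2 fold change -2.79 ± 1.03 (SE), adjusted p = 0.045), rested on the first 1d-MI + 3 library, at 52.2 CPM against at most 3.8 CPM in the other 3. Its call was lost without it (adjusted p = 0.5), and in all without any library of 1d-SHAM + 3, or the first of 1d-MI + 3, or the third of 7d-SHAM + 3, or any library of 7d-MI + 3. Dcpp2 lost its call without the first, the second or the fourth of 7d-MI + 3 and gave an adjusted p of 0.093 without the 2 libraries of highest background, where Mroh2a gave -1.82 (adjusted p = 0.037).

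Cell division genes showed an age difference that depended on the injury. In sham-operated hearts nearly the whole mitosis programme was lower at the older age, and in infarcted hearts few of its genes differed. Of 83 mitosis and cytokinesis genes tested, 81 were lower in 7d-SHAM + 3 than in 1d-SHAM + 3 (median log2 fold change -1.83). Between the infarcted groups 17 were lower and 3 higher in the older hearts (median -0.20, against -0.13 for all genes). The age difference was more positive after MI than after sham at 65 of the 83 and more negative at 0 by edgeR, against 9.01% and 4.07% of all genes. The count was 58 with upper-quartile scaling and 45 without the 2 libraries of highest background. The summed level of the list was 1905 to 3649 CPM in the younger and 2661 to 2776 CPM in the older infarcted hearts. Sham-operated hearts had 3205 to 4847 CPM at the younger and 1740.0 to 2042 CPM at the older age. The older infarcted hearts thus lay within the range of the younger infarcted hearts and above all older sham-operated hearts. The younger infarcted hearts had a lower median than the younger sham-operated ones, 2773 against 4299 CPM, with overlapping ranges. At the older age the medians were 2737 CPM after MI and 1903 CPM in sham. The 17 lower calls were 5 to 8 without the third or the fourth 1d-MI + 3 library or any 1 library of 7d-MI + 3, and 7 when the mouse name prefix was a random effect.

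**Figure D3:**
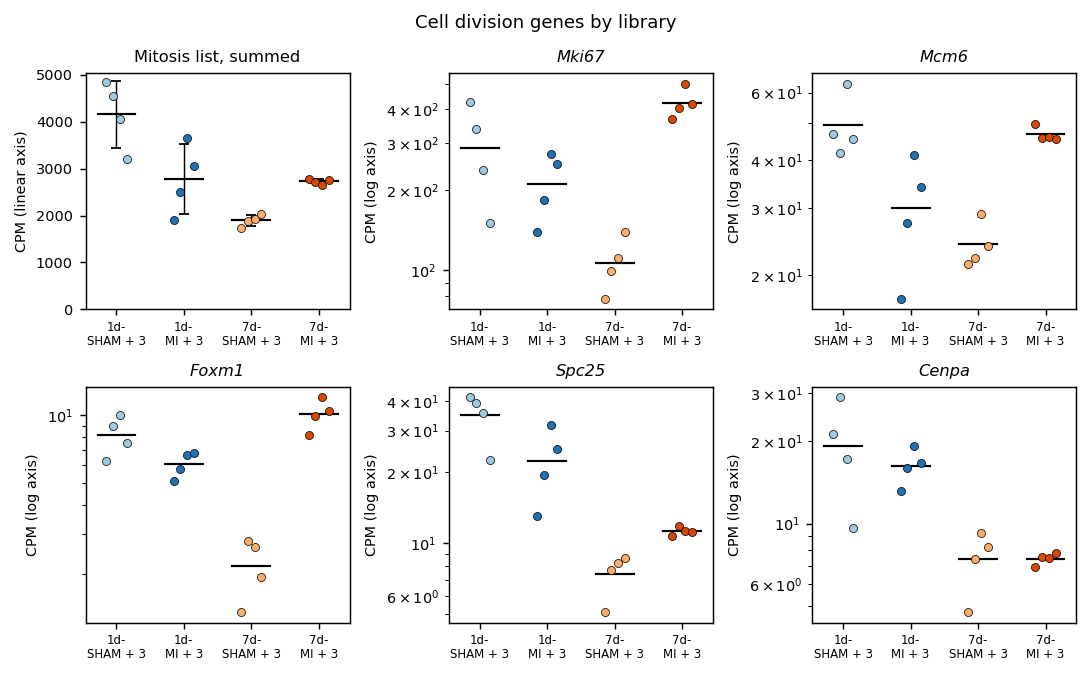
Summed CPM of 83 mitosis genes (linear axis, mean and SD) and CPM of 5 cell division genes (log axes, means as lines) in each library of the 4 groups. Mki67, Mcm6 and Foxm1 were higher and Spc25 and Cenpa lower in the older infarcted hearts, and the 4 sums of 7d-MI + 3 lie within the range of 1d-MI + 3.

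Members of the mitosis list moved in both directions between the infarcted groups. Mki67, the proliferation antigen Ki-67 that coats mitotic chromosomes (chromosome 7, 135689784 to 135716361), was measured at 139, 183, 273 and 250.2 CPM in 1d-MI + 3 and at 369, 406, 498 and 419 CPM in 7d-MI + 3. Mki67 gave 1.0 ± 0.27 as log2 fold change (SE, adjusted p = 0.0063). All 4 older hearts were above all younger ones, whereas in sham the difference was -1.43 (adjusted p = 0.0013). Without the 2 libraries of highest background the Mki67 value was 0.71 (adjusted p = 0.087). Foxm1, the transcription factor of G2 and mitotic genes, ranged from 5.11 to 6.82 CPM in 1d-MI + 3 and 8.21 to 12 CPM in 7d-MI + 3 (log2 fold change 0.73 ± 0.20 (SE), adjusted p = 0.0068). The condensin subunit Ncapg2 ranged from 15.8 to 21.2 CPM in 1d-MI + 3 and 22.5 to 29.3 CPM in 7d-MI + 3 (log2 fold change 0.49 ± 0.16 (SE), adjusted p = 0.017). Both gave an adjusted p above 0.05 without these 2 libraries, 0.089 and 0.14. Ncapg2 did so also without the second 7d-MI + 3 library (0.063). In the opposite direction, Cenpa, the centromeric histone H3 variant, was at 13.2, 16, 19.2 and 16.7 CPM in 1d-MI + 3 and at 6.92, 7.52, 7.48 and 7.83 CPM in 7d-MI + 3. For Cenpa the log2 fold change was -1.13 ± 0.24 (SE, adjusted p = 0.0013), with -1.38 (adjusted p = 0.00073) in sham. Spc25, of the kinetochore complex that binds microtubules, was at 13, 19.4, 31.8 and 25 CPM in 1d-MI + 3 and at 10.7, 11.8, 11.3 and 11.2 CPM in 7d-MI + 3. Spc25 gave -0.99 ± 0.23 as log2 fold change (SE, adjusted p = 0.0022), with -2.22 (adjusted p = 8.9e-06) in sham. The 4 older hearts held these genes at nearly equal levels, and below each younger heart. Depdc1a (log2 fold change -1.15 ± 0.30 (SE), adjusted p = 0.0052) and the spindle checkpoint gene Mad2l1 (log2 fold change -0.88 ± 0.24 (SE), adjusted p = 0.0074) were also lower, and all 4 stayed called without the 2 libraries of highest background.

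The genes of this list are known to be kept silent outside G2 and mitosis. The complexes involved bind a cell cycle homology region, a short element near the start of transcription, and CCAAT boxes lie upstream of it. RefSeq promoters (GRCm38.p6, 250 bases before to 50 after each start) were available for 70 genes of the list with 78 entries. The element, searched as TTTGAA or TTCGAA on either strand, was present in 54 of the 78 (69.2%) and in 19.2% of all 32851 promoters in the table. CCAAT on either strand was present in 70.5% and 37.4%, and both motifs in 55.1% and 7.53%. Of 49 entries for DNA replication genes, 11 held the element. The promoters of Cenpa, Spc25, Depdc1a and Mki67 are shown because they are the called mitosis genes of smallest p that hold the element. Mki67 moved against the other 3. Each is given from 150 bases before to 30 bases after the start, with matches to either motif on either strand in capitals.
Cenpa, chr5:30666736-30666915, plus strand: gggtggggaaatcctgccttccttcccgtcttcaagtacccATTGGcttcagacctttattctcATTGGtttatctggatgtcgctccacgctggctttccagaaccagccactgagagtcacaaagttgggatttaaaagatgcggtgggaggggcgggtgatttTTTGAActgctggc
Spc25, chr2:69206184-69206363, minus strand: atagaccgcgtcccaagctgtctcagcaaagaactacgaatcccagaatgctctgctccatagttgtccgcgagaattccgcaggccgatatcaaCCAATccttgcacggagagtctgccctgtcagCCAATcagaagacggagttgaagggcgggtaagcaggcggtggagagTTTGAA
Depdc1a, chr3:159495283-159495462, plus strand: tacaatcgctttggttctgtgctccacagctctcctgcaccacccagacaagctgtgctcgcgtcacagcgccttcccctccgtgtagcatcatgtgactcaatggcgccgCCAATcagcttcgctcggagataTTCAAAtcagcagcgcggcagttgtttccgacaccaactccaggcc
Mki67, chr7:135716350-135716529, minus strand: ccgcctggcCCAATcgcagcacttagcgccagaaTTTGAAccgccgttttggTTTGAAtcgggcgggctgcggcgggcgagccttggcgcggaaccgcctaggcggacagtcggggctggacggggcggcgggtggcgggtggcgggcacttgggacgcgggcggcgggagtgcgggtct
Cenpa and Spc25 hold the element 16 and 24 bases after the annotated start, Depdc1a 16 bases before it, and Mki67 has 2 copies, 116 and 98 bases before it. The motif counts describe the letters only, and both directions of change occurred among promoters that hold them.

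DNA replication and histone genes were counted apart from the mitotic ones. Of 50 replication genes, 45 were lower in 7d-SHAM + 3 than in 1d-SHAM + 3. After MI 3 were higher and 9 lower at the older age (median -0.01). The difference of the age difference was called positive at 29 and negative at 0 by edgeR. Mcm6, a subunit of the replicative helicase, was at 17.4, 27.3, 41.2 and 34 CPM in 1d-MI + 3 and at 49.8, 45.5, 46 and 45.4 CPM in 7d-MI + 3. Mcm6 gave 0.64 ± 0.19 as log2 fold change (SE, adjusted p = 0.012). In sham its value was -1.03 (adjusted p = 0.001), and after MI it was 0.33 (adjusted p = 0.18) without the 2 libraries of highest background. Replication-dependent histones, which are transcribed in S phase, were higher at 21 of 56 and lower at 2 (median 0.97). In sham 0 were higher and 3 lower. The summed level of the list was 709.9, 626.7, 2256 and 1888 CPM in 1d-SHAM + 3, divided by mouse name prefix. It was 527.5 to 994.3 CPM in 7d-SHAM + 3. After MI it was 433.6 to 694 CPM at the younger and 826.9 to 1158 CPM at the older age. With this spread in 1d-SHAM + 3, the few sham calls do not show that histone genes were unchanged with age in sham. Hist1h3e was at 3.46, 3.82, 7.24 and 5.2 CPM in 1d-MI + 3 and at 16, 28.3, 11.8 and 19.6 CPM in 7d-MI + 3. For Hist1h3e the log2 fold change was 1.94 ± 0.30 (SE, adjusted p = 9.5e-05). The linker histone Hist1h1c ranged from 19.6 to 45.4 CPM in 1d-MI + 3 and 45.8 to 78.6 CPM in 7d-MI + 3 (log2 fold change 0.96 ± 0.22 (SE), adjusted p = 0.0025). Histone genes are near copies of each other and their assignment is uncertain. Of the list, 3 were called higher without the 2 libraries of highest background, where Hist1h1c had an adjusted p of 0.061.

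Among regulators of cell cycle entry, 6 of 21 G1 genes were higher and 4 lower (4 and 4 with upper-quartile scaling). Cdk6, the kinase that pairs with D cyclins, was at 20.1, 20.8, 22.8 and 24.4 CPM in 1d-MI + 3 and at 40.6, 56.5, 76.6 and 58.1 CPM in 7d-MI + 3. Cdk6 gave 1.40 ± 0.17 as log2 fold change (SE, adjusted p = 3.8e-06). Myc, which drives growth and entry into S phase, was at 4.46, 5.05, 4.27 and 4.63 CPM in 1d-MI + 3 and at 8.47, 12.5, 11.3 and 12.9 CPM in 7d-MI + 3. Myc gave 1.29 ± 0.18 as log2 fold change (SE, adjusted p = 1.7e-05). The sham value was -0.51 (adjusted p = 0.056), with a difference of 1.80 (adjusted p = 0.00033). Cdk6 and Myc both separated the groups without overlap. Ccnd2, a D cyclin of the neonatal heart, ranged from 52.9 to 66.8 CPM in 1d-MI + 3 and 65.2 to 140.3 CPM in 7d-MI + 3 (log2 fold change 0.71 ± 0.18 (SE), adjusted p = 0.0032). Of 18 inhibitors and exit factors, 4 were higher and 3 lower with TMM, and 1 was higher and 9 lower with upper-quartile scaling. Cdkn1c, the imprinted p57 inhibitor, was at 25.1, 24.3, 33.6 and 27.6 CPM in 1d-MI + 3 and at 15.9, 12.4, 13.2 and 10.7 CPM in 7d-MI + 3. For Cdkn1c the log2 fold change was -1.08 ± 0.14 (SE, adjusted p = 8e-06), and it did not pass the test in sham, -0.15 (adjusted p = 0.46). Cdkn1a, the p21 inhibitor, overlapped between the groups (5.32 to 7.48 CPM in 1d-MI + 3 and 6.44 to 15 CPM in 7d-MI + 3; log2 fold change 0.71 ± 0.23 (SE), adjusted p = 0.017). It lost its call without the second of 1d-MI + 3, or the second of 7d-MI + 3 or without both libraries of highest background (adjusted p = 0.13).

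In the muscle itself, named genes that were higher in older infarcted hearts included actins and proteins of the Z-disc and myofibril scaffold. Several regulatory proteins were lower. These genes were chosen by smallest p, as fixed pairs or as markers, and do not summarise the lists. Of 30 adult sarcomere genes, 8 were higher and 4 lower in 7d-MI + 3 (median 0.14), compared with 18 higher and 0 lower in the older sham-operated hearts by edgeR (median 0.55). With upper-quartile scaling 7 were higher and 6 lower after MI (median -0.10). The difference of the age difference was called negative at 6 and positive at 0, and negative at 13 with upper-quartile scaling and at 12 with DESeq2. Of 20 fetal and early isoforms, 6 were higher and 7 lower after MI (median -0.28), and 0 were higher and 9 lower in sham (median -0.75). Here and below, fewer cells of a type and less RNA per cell cannot be told apart in tissue RNA.

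Xirp2, the actin-binding repeat protein of intercalated discs and remodelling myofibrils (chromosome 2, 67446002 to 67526614), was at 1038, 512, 1030.1 and 1041 CPM in 1d-MI + 3 and at 4258, 6431, 4672 and 5537 CPM in 7d-MI + 3. Xirp2 gave 2.53 ± 0.30 as log2 fold change (SE, adjusted p = 6e-06). The older hearts held several times the level of the younger ones, and sham-operated hearts had 70.1 to 230.1 and 396 to 607 CPM. The sham difference was 1.61 (adjusted p = 0.00087). Actc1, the main actin of the heart, was at 2541, 1812, 2041 and 2039.8 CPM in 1d-MI + 3 and at 3165, 3926, 4335 and 3659 CPM in 7d-MI + 3. Actc1 gave 0.84 ± 0.15 as log2 fold change (SE, adjusted p = 0.00018). The Z-disc crosslinker Actn2 ranged from 375 to 607 CPM in 1d-MI + 3 and 734 to 1306 CPM in 7d-MI + 3 (log2 fold change 0.89 ± 0.19 (SE), adjusted p = 0.001). Vinculin, Vcl, which anchors actin at cell junctions, ranged from 83.5 to 106 CPM in 1d-MI + 3 and 142 to 224 CPM in 7d-MI + 3 (log2 fold change 1.04 ± 0.17 (SE), adjusted p = 0.00012). Titin, Ttn, was higher by 1.07 ± 0.25 (SE) on the log2 scale, with the third 7d-MI + 3 library far above the rest. Myh6, the fast adult myosin heavy chain, overlapped between the groups (2591 to 4761 CPM in 1d-MI + 3 and 4663 to 11889 CPM in 7d-MI + 3; log2 fold change 0.92 ± 0.24 (SE), adjusted p = 0.0051). In sham Myh6 rose with age too, 1.04 (adjusted p = 0.0056). The difference from sham was not called for Xirp2, Actc1, Actn2, Vcl, Ttn or Myh6 (adjusted p from 0.058 to 0.88). It was called for Acta1, 2.93 (adjusted p = 0.028).

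Isoform pairs that switch at birth did not all follow the same order. Tnni1, the fetal troponin I, was at 61, 96.4, 122 and 107 CPM in 1d-MI + 3 and at 26, 33.7, 22.7 and 40.0 CPM in 7d-MI + 3. For Tnni1 the log2 fold change was -1.66 ± 0.27 (SE, adjusted p = 0.00015), with -1.09 (adjusted p = 0.0086) in sham. Its adult counterpart Tnni3 ranged from 887 to 1404 CPM in 1d-MI + 3 and 891 to 1399 CPM in 7d-MI + 3 (log2 fold change -0.01 ± 0.18 (SE), adjusted p = 0.97). Per kb of exon, Tnni1 made up 4.62% ± 1.45 (SD, n = 4) of the pair in 1d-MI + 3 and 1.53% ± 0.55 in 7d-MI + 3. The exact permutation test, two-sided, gave p = 0.029, the smallest that 4 against 4 libraries allow, and 0.051 adjusted over 9 pairs. Myh7, the fetal myosin, ranged from 185 to 389 CPM in 1d-MI + 3 and 277 to 412 CPM in 7d-MI + 3 (log2 fold change 0.16 ± 0.24 (SE), adjusted p = 0.62). It was lower with age in sham, -1.53 (adjusted p = 0.00024), and the difference was 1.69 (adjusted p = 0.0031). Its share of the Myh7 and Myh6 pair was 6.27% ± 3.13 (SD, n = 4) in 1d-MI + 3 and 3.96% ± 1.70 in 7d-MI + 3 (exact permutation p = 0.29, adjusted 0.37). Acta1 rose from 1.49% ± 0.67 to 7.56% ± 2.47 of the Acta1 and Actc1 pair (SD, n = 4; exact permutation p = 0.029, adjusted 0.051). It stood at 0.64% ± 0.37 and 0.57% ± 0.19 in the younger and older sham-operated hearts. The atrial light chain Myl4, a fetal ventricular isoform, ranged from 4.75 to 11.3 CPM in 1d-MI + 3 and 1.82 to 2.57 CPM in 7d-MI + 3 (log2 fold change -1.70 ± 0.27 (SE), adjusted p = 6.9e-05). The ventricular light chain Myl2 ranged from 3680.0 to 5437 CPM in 1d-MI + 3 and 2848 to 3412 CPM in 7d-MI + 3 (log2 fold change -0.55 ± 0.16 (SE), adjusted p = 0.0097).

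**Figure D4:**
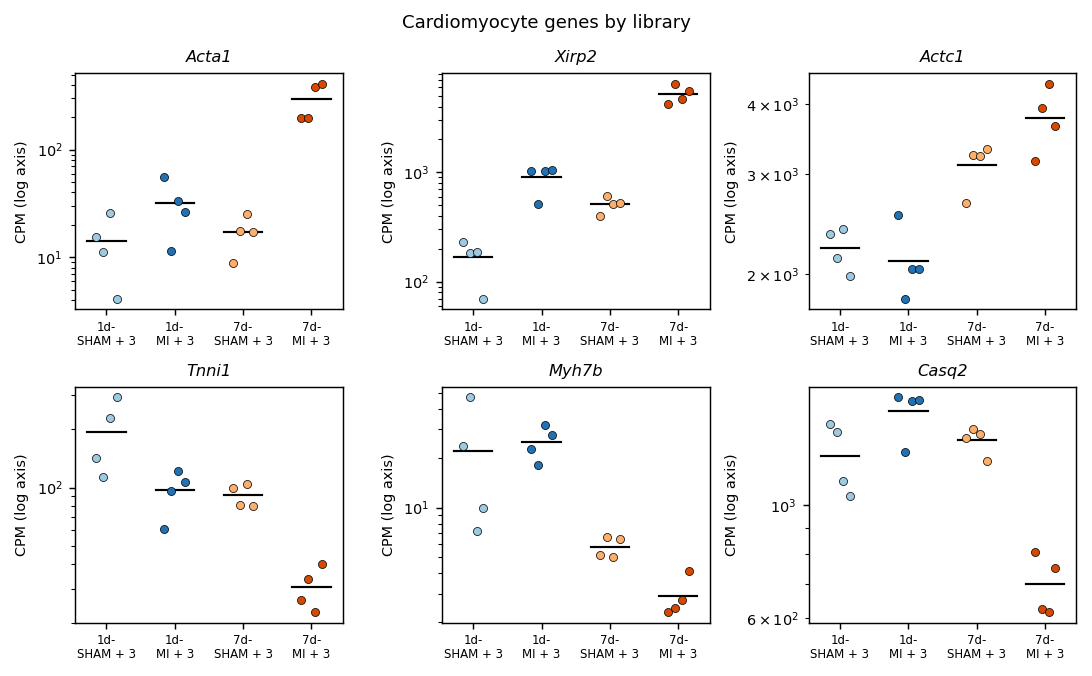
CPM of 6 cardiomyocyte genes (log axes) in each library of the 4 groups, with means as lines. Acta1, Xirp2 and Actc1 were higher, and Tnni1, Myh7b and Casq2 lower, in every 7d-MI + 3 library than in every 1d-MI + 3 library; Casq2 lay at 617 to 809.8 CPM in 7d-MI + 3 and at 1270.1 to 1622 CPM in 1d-MI + 3.

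Tnnt2, cardiac troponin T, was at 1806, 1255, 2005 and 1918 CPM in 1d-MI + 3 and at 1226, 927, 801 and 1175 CPM in 7d-MI + 3. Tnnt2 gave -0.76 ± 0.17 as log2 fold change (SE, adjusted p = 0.0019), with 0.23 (adjusted p = 0.35) in sham. Among 26 genes of calcium release, reuptake and T-tubules, 5 were higher and 7 lower in 7d-MI + 3, near the 19.4% and 23.5% of all genes. Without the 2 libraries of highest background 3 were higher and 4 lower. In 7d-SHAM + 3, 7 were higher and 1 lower. Casq2 and S100a1, described next, were lower and do not stand for the list. Casq2, which buffers calcium in the sarcoplasmic reticulum (chromosome 3, 102086415 to 102146514), was at 1622, 1270.1, 1595 and 1604 CPM in 1d-MI + 3 and at 809.8, 625, 617 and 752 CPM in 7d-MI + 3. Casq2 gave -1.12 ± 0.15 as log2 fold change (SE, adjusted p = 1e-05). It did not differ with age in sham by this test, 0.10 (adjusted p = 0.64), and the difference was -1.22 (adjusted p = 0.00087). S100a1, a calcium sensor that promotes pump and release channel activity, ranged from 186 to 296 CPM in 1d-MI + 3 and 131 to 179 CPM in 7d-MI + 3 (log2 fold change -0.72 ± 0.14 (SE), adjusted p = 0.00072). It rose with age in sham, 0.62 (adjusted p = 0.0054). Of 33 channel genes, 5 were higher and 7 lower with TMM, 1 and 12 with upper-quartile scaling, and 5 and 3 without the 2 libraries of highest background. The potassium channel subunit Kcne1 ranged from 45.9 to 76.1 CPM in 1d-MI + 3 and 34.6 to 50.5 CPM in 7d-MI + 3 (log2 fold change -0.57 ± 0.15 (SE), adjusted p = 0.0043) and rose in sham, 0.87 (adjusted p = 0.00042). Hcn4, the pacemaker channel (0.457 to 2.86 CPM in 1d-MI + 3 and 0 to 0.464 CPM in 7d-MI + 3; log2 fold change -2.63 ± 0.82 (SE), adjusted p = 0.014), lost its call without the second 1d-MI + 3 library (adjusted p = 0.07), and gave -1.09 (adjusted p = 0.4) without the 2 of highest background. Kcnj2, the inward rectifier of adult myocytes, ranged from 17.6 to 31.1 CPM in 1d-MI + 3 and 23 to 33.4 CPM in 7d-MI + 3 (adjusted p = 0.68). Intercalated disc genes were higher at 12 of 31 and lower at 3 with TMM, but higher at 9 and lower at 11 with upper-quartile scaling.

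Cardiac transcription factors were more often lower, at 12 of 37, than higher, at 5 (median -0.29; sham 5 and 5). Hey2, the Notch-linked repressor that marks compact ventricular muscle, was at 20.8, 26.1, 26 and 18.1 CPM in 1d-MI + 3 and at 10.3, 8.3, 7.4 and 7.74 CPM in 7d-MI + 3. For Hey2 the log2 fold change was -1.43 ± 0.18 (SE, adjusted p = 8.3e-06). It was lower with age in sham too, -2.48 (adjusted p = 4.8e-07), with a difference of 1.05 (adjusted p = 0.01). Klf15, a glucocorticoid-induced regulator of metabolism that restrains hypertrophy, was at 4.11, 3.8, 3.16 and 2.0 CPM in 1d-MI + 3 and at 1.0, 0.657, 1.29 and 0.738 CPM in 7d-MI + 3. Klf15 gave -1.82 ± 0.29 as log2 fold change (SE, adjusted p = 8.1e-05). In sham Klf15 did not pass the test, 0.41 (adjusted p = 0.31), and the difference was -2.22 (adjusted p = 0.0014). Gata6, a core regulator of heart muscle and its supporting cells, ranged from 103 to 142 CPM in 1d-MI + 3 and 65.4 to 85.2 CPM in 7d-MI + 3 (log2 fold change -0.78 ± 0.14 (SE), adjusted p = 0.00031), with -0.08 (adjusted p = 0.7) in sham. Atrial genes were lower at 9 of 16 and higher at 1. The atrial light chain Myl7 was at 3.44, 3.62, 3.79 and 5.97 CPM in 1d-MI + 3 and at 0.186, 0.58, 0.666 and 0.521 CPM in 7d-MI + 3. Myl7 gave -3.10 ± 0.44 as log2 fold change (SE, adjusted p = 2.5e-05). Bmp10, an atrial ligand, had 19 to 21 counts in each 1d-MI + 3 library and 0, 0, 0 and 4 counts in 7d-MI + 3. Sln, an atrial calcium pump regulator, did not pass the filter on low counts, with at most 0.447 CPM in any infarcted library.

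Lists of fetal growth genes held more members lower than higher in the older hearts, with and without infarction. Of 29 genes of the imprinted growth network, 14 were lower and 6 higher in 7d-MI + 3 (median -0.66), and 13 were lower and 2 higher in 7d-SHAM + 3 (median -0.57). The summed level of this list overlapped, at 2189 to 2986 CPM in 1d-MI + 3 and 2373 to 2665 CPM in 7d-MI + 3. Plagl1, the zinc finger factor that regulates the network (chromosome 10, 13060504 to 13131694), was at 159.5, 132, 177 and 124 CPM in 1d-MI + 3 and at 50.9, 66.3, 54 and 64 CPM in 7d-MI + 3. For Plagl1 the log2 fold change was -1.33 ± 0.21 (SE, adjusted p = 6e-05), with -1.29 (adjusted p = 0.00024) in sham. Peg10, a retrotransposon-derived imprinted gene, went the opposite way, at 6.93, 10.6, 7.46 and 17 CPM in 1d-MI + 3 and at 26.8, 27.6, 25.1 and 36.2 CPM in 7d-MI + 3. Peg10 gave 1.46 ± 0.26 as log2 fold change (SE, adjusted p = 0.00024), and the difference from sham was 2.23 (adjusted p = 0.00095). Oncofetal regulators were lower at 10 of 21 and higher at 2, and lower at 11 and higher at 0 in sham by edgeR. Without the 2 libraries of highest background 4 were lower and 1 higher after MI. Lin28b, which blocks let-7 maturation, ranged from 1.4 to 2.16 CPM in 1d-MI + 3 and 0.217 to 0.588 CPM in 7d-MI + 3 (log2 fold change -2.16 ± 0.44 (SE), adjusted p = 0.00083). It was lower with age in sham too, -1.97 (adjusted p = 0.0043). The factor Sox11 ranged from 5.97 to 10.6 CPM in 1d-MI + 3 and 2.17 to 5.48 CPM in 7d-MI + 3 (log2 fold change -1.25 ± 0.27 (SE), adjusted p = 0.0013). The RNA-binding protein Igf2bp1 ranged from 2.5 to 5.43 CPM in 1d-MI + 3 and 1.29 to 1.78 CPM in 7d-MI + 3 (log2 fold change -1.30 ± 0.29 (SE), adjusted p = 0.0016). It was lower in sham too, -2.87 (adjusted p = 1.5e-05), with a difference of 1.57 (adjusted p = 0.022). Without the 2 libraries of highest background its value was -0.92 (adjusted p = 0.057). Of the DNA methyltransferases, Dnmt3a ranged from 37.8 to 43.6 CPM in 1d-MI + 3 and 49 to 66.5 CPM in 7d-MI + 3 (log2 fold change 0.40 ± 0.12 (SE), adjusted p = 0.01). Dnmt3b ranged from 1.59 to 1.93 CPM in 1d-MI + 3 and 1.16 to 1.43 CPM in 7d-MI + 3 (adjusted p = 0.3). Dnmt3a gave 0.40 (adjusted p = 0.061) without these libraries.

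Several receptors for growth factors were higher in the older infarcted hearts. Egfr, the epidermal growth factor receptor (chromosome 11, 16752203 to 16918158), was at 7.25, 6.05, 7.78 and 8.94 CPM in 1d-MI + 3 and at 30.1, 28.3, 34.1 and 28.8 CPM in 7d-MI + 3. Egfr gave 2.01 ± 0.15 as log2 fold change (SE, adjusted p = 3.8e-08). It rose with age in sham too, 0.85 (adjusted p = 0.00038), and the difference was 1.16 (adjusted p = 0.0011). Of its ligands, Hbegf ranged from 6.3 to 17.8 CPM in 1d-MI + 3 and 24.8 to 43.1 CPM in 7d-MI + 3 (log2 fold change 1.56 ± 0.26 (SE), adjusted p = 0.00019). Ereg ranged from 0.476 to 2.97 CPM in 1d-MI + 3 and 4.23 to 12.4 CPM in 7d-MI + 3 (log2 fold change 2.12 ± 0.45 (SE), adjusted p = 0.0013). Betacellulin, Btc, was lower, at 3.99 to 5.09 CPM in 1d-MI + 3 and 2.0 to 2.71 CPM in 7d-MI + 3 (log2 fold change -1.03 ± 0.24 (SE), adjusted p = 0.0024). The receptor and these ligands thus did not share a direction. ErbB genes as a list were higher at 7 and lower at 5 of 15 (6 and 6 with upper-quartile scaling). Fgfr1 was at 8.8, 7.59, 5.78 and 6.77 CPM in 1d-MI + 3 and at 18.5, 21.6, 23.2 and 21 CPM in 7d-MI + 3. For Fgfr1 the log2 fold change was 1.54 ± 0.17 (SE, adjusted p = 1.9e-06), with 0.28 (adjusted p = 0.25) in sham. FGF genes were higher at 8 and lower at 4 of 23, or at 2 and 6 with upper-quartile scaling. The insulin-like growth factor receptor Igf1r ranged from 19.8 to 27.5 CPM in 1d-MI + 3 and 30.2 to 43.6 CPM in 7d-MI + 3 (log2 fold change 0.79 ± 0.14 (SE), adjusted p = 0.00025). The binding protein Igfbp5 ranged from 18.5 to 33.2 CPM in 1d-MI + 3 and 41.5 to 90.7 CPM in 7d-MI + 3 (log2 fold change 1.30 ± 0.25 (SE), adjusted p = 0.00053). IGF and insulin genes were higher at 8 and lower at 2 of 25, and at 7 and 1 in sham.

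The stroma was higher in the older infarcted hearts, and the activated fibroblast list had the highest median of the 32 lists plotted. Of 29 genes of activated fibroblasts and myofibroblasts, 25 were higher and 0 lower in 7d-MI + 3 by edgeR (median 1.87, against -0.13 and 19.4% for all genes). Of the 29, 22 separated the groups without overlap (18.4% of all genes). In sham 3 were higher and 2 lower (median 0.14). The difference of the age difference was called positive at 19 and negative at 0. Quiescent fibroblast genes were higher with age in both settings, 18 of 26 after MI and 19 of 26 in sham, with 1 lower in each. Matricellular and adhesive matrix proteins were higher at 38 of 51 and lower at 0 (median 1.18; sham 22 and 2). Collagen-modifying enzymes were higher at 20 of 29 and lower at 0, and matrix proteases and their inhibitors higher at 26 of 43 and lower at 2. Collagen chains divided, with 18 of 43 higher and 12 lower, 17 and 5 without the 2 libraries of highest background.

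**Figure D5:**
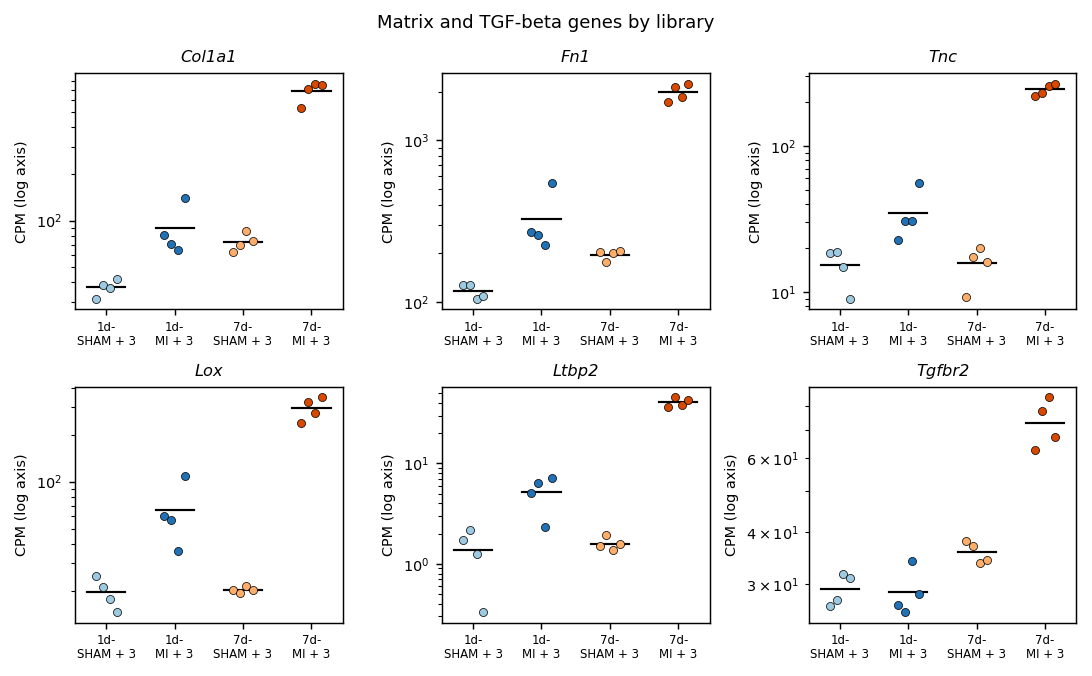
CPM of 6 matrix and TGF-beta pathway genes (log axes) in each library of the 4 groups, with means as lines. All 6 were higher in every 7d-MI + 3 library than in every other library of the 3-day follow-up, with Tnc at 221 to 265 CPM against at most 55.6 CPM in 1d-MI + 3.

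Col1a1, the chain of the main scar collagen (chromosome 11, 94936224 to 94953042), was at 80.9, 70.2, 65 and 140.2 CPM in 1d-MI + 3 and at 531, 709, 761 and 747 CPM in 7d-MI + 3. Col1a1 gave 2.95 ± 0.21 as log2 fold change (SE, adjusted p = 3.8e-08). The sham-operated hearts had 31.4 to 42 and 62.4 to 85.9 CPM, and the difference of the age difference was 1.97 (adjusted p = 0.00033). Fibronectin, Fn1, on which cells migrate and collagen assembles (chromosome 1, 71585520 to 71653200), was at 271, 259.5, 226 and 544 CPM in 1d-MI + 3 and at 1732, 2139, 1851 and 2232 CPM in 7d-MI + 3. Fn1 gave 2.61 ± 0.22 as log2 fold change (SE, adjusted p = 1.2e-07). Tenascin C, Tnc, a de-adhesive protein of injured heart (chromosome 4, 63959785 to 64047015), was at 22.7, 30.7, 30.4 and 55.6 CPM in 1d-MI + 3 and at 221, 230.3, 257 and 265 CPM in 7d-MI + 3. For Tnc the log2 fold change was 2.80 ± 0.28 (SE, adjusted p = 1.6e-06), with no difference by age detected in sham, 0.04 (adjusted p = 0.93). The fourth 1d-MI + 3 library was the highest of its group for each of these 3 genes. Versican, Vcan, a large proteoglycan of loose and embryonic matrix, ranged from 113 to 167 CPM in 1d-MI + 3 and 458 to 587 CPM in 7d-MI + 3 (log2 fold change 1.84 ± 0.15 (SE), adjusted p = 1.2e-07). Biglycan, Bgn, ranged from 47.1 to 98.7 CPM in 1d-MI + 3 and 234 to 365 CPM in 7d-MI + 3 (log2 fold change 2.34 ± 0.20 (SE), adjusted p = 1.5e-07). Col6a3 (2.52 ± 0.16), Col5a1 (2.28 ± 0.20) and Col15a1 (2.11 ± 0.21) were higher by similar amounts on the log2 scale. These are long transcripts. The 8816 protein-coding genes with a mean of at least 5 CPM over the infarcted groups were divided into 4 classes of equal size by exon length. From the shortest to the longest class the median log2 fold change was 0.02, 0.15, 0.24 and 0.39 (sham 0.07, 0.01, 0.03 and 0.04). The part of this trend in the matrix results and in the muscle results above was not tested.

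Lysyl oxidase, Lox, which crosslinks collagen and elastin (chromosome 18, 52516067 to 52529867), was at 60.5, 56.4, 36.1 and 109 CPM in 1d-MI + 3 and at 237, 326, 275 and 347 CPM in 7d-MI + 3. Lox gave 2.18 ± 0.25 as log2 fold change (SE, adjusted p = 3.8e-06), with sham levels of 14.7 to 24.9 and 19.3 to 21.5 CPM. Plau, the urokinase-type plasminogen activator, ranged from 2.43 to 5.48 CPM in 1d-MI + 3 and 13.7 to 23.6 CPM in 7d-MI + 3 (log2 fold change 2.30 ± 0.23 (SE), adjusted p = 6.5e-07). The metalloprotease Adam12 of proliferating stromal cells ranged from 8.4 to 12.6 CPM in 1d-MI + 3 and 31.9 to 43.4 CPM in 7d-MI + 3 (log2 fold change 1.87 ± 0.21 (SE), adjusted p = 1.7e-06). The marker Postn, periostin of activated fibroblasts and of the growing neonatal heart, was at 950.5, 585, 1159 and 1347 CPM in 1d-MI + 3 and at 1908, 1735, 1963 and 2268 CPM in 7d-MI + 3. Postn gave 0.96 ± 0.20 as log2 fold change (SE, adjusted p = 0.00093). Cthrc1, which marks matrix-producing fibroblasts after infarction, ranged from 2.76 to 7.14 CPM in 1d-MI + 3 and 16.5 to 24.1 CPM in 7d-MI + 3 (log2 fold change 2.22 ± 0.27 (SE), adjusted p = 4.6e-06). General fibroblast markers also differed. Pdgfra, the platelet-derived growth factor receptor of fibroblasts, ranged from 22.6 to 37.5 CPM in 1d-MI + 3 and 88.6 to 91.2 CPM in 7d-MI + 3 (log2 fold change 1.53 ± 0.16 (SE), adjusted p = 8.8e-07). It rose with age in sham too, 1.02 (adjusted p = 0.00017). Dcn, decorin, overlapped (341 to 565 CPM in 1d-MI + 3 and 517 to 758 CPM in 7d-MI + 3; log2 fold change 0.56 ± 0.16 (SE), adjusted p = 0.0083) and gave 0.42 (adjusted p = 0.1) without the 2 libraries of highest background. The lineage factor Tcf21 overlapped too (2.59 to 5.45 CPM in 1d-MI + 3 and 4.55 to 8.63 CPM in 7d-MI + 3; log2 fold change 0.79 ± 0.26 (SE), adjusted p = 0.02). Its adjusted p was 0.081 without them, and it also lost its call without the second of 1d-MI + 3, or the fourth of 7d-MI + 3.

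Genes of the cytoplasmic actin skeleton and of migration were also higher, 36 of 48 against 2 lower (median 0.76; sham 3 and 6). Without the 2 libraries of highest background 18 were higher. Actb, beta-actin, was at 329, 341, 384 and 518 CPM in 1d-MI + 3 and at 1631, 1762, 1515 and 1568 CPM in 7d-MI + 3. For Actb the log2 fold change was 2.04 ± 0.18 (SE, adjusted p = 1.7e-07). The non-muscle myosin Myh9 ranged from 68.4 to 151 CPM in 1d-MI + 3 and 374 to 479 CPM in 7d-MI + 3 (log2 fold change 2.10 ± 0.22 (SE), adjusted p = 1.1e-06). Macrophage markers moved with the stroma, with 19 of 30 higher and 0 lower by edgeR (17 higher without the 2 libraries). The summed level of the list was 229.6 to 789 CPM in the younger and 761 to 2277 CPM in the older infarcted hearts. Sham-operated hearts had 146 to 169 CPM at the younger and 197 to 245 CPM at the older age. The defining markers Adgre1 (2.08 ± 0.34), C1qa (1.82 ± 0.24) and Ccr2 (1.75 ± 0.48) were present in every infarcted library and higher in 7d-MI + 3. Among 1d-MI + 3 libraries, Adgre1 and Ccr2 were highest in the fourth. Neutrophil markers were higher at 4 of 24, near the 19.4% of all genes called higher, which is not read as a change of neutrophils. S100a8 was among the 4 (1.29 ± 0.19). Camp did not pass the edgeR test (-0.78, adjusted p = 0.50) and stayed at or below 1.03 CPM. Ly6g stayed at or below 0.353 CPM and did not pass the filter on low counts. The part of myeloid cells in the cytoskeletal, lysosomal and secretory results was not tested.

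The TGF-beta pathway was higher almost throughout. Of 24 ligands, receptors and latent binders, 22 were higher and 0 lower (median 1.24), against 8 and 0 in sham by edgeR. The difference was called positive at 12 (7 without the 2 libraries of highest background). Ltbp2, a relative of the latent TGF-beta binding proteins that associates with elastic fibres (chromosome 12, 84783212 to 84876532), was at 5.03, 6.32, 2.34 and 7.12 CPM in 1d-MI + 3 and at 36.2, 45.7, 38 and 43.1 CPM in 7d-MI + 3. No library of sham-operated heart exceeded 2.2 CPM. Ltbp4 ranged from 7.46 to 10.9 CPM in 1d-MI + 3 and 21.2 to 47.2 CPM in 7d-MI + 3 (log2 fold change 1.77 ± 0.19 (SE), adjusted p = 1.2e-06). It rose in sham too, 1.67 (adjusted p = 1.1e-05), with a difference of 0.10 (adjusted p = 0.86). Of the receptors, Tgfbr2, which binds the ligand, was at 26.7, 25.8, 34.1 and 28.4 CPM in 1d-MI + 3 and at 62.6, 77.6, 83.7 and 67.3 CPM in 7d-MI + 3. Tgfbr2 gave 1.34 ± 0.13 as log2 fold change (SE, adjusted p = 3.5e-07). The co-receptor endoglin, Eng, ranged from 7.82 to 12.3 CPM in 1d-MI + 3 and 26.3 to 56.3 CPM in 7d-MI + 3 (log2 fold change 1.91 ± 0.21 (SE), adjusted p = 1.3e-06). Acvrl1, its partner in endothelium, ranged from 4.61 to 6.03 CPM in 1d-MI + 3 and 14.4 to 18.7 CPM in 7d-MI + 3 (log2 fold change 1.57 ± 0.21 (SE), adjusted p = 1.3e-05). The targets of the pathway named here were chosen by smallest p within their lists, and they were higher. Pmepa1, a feedback inhibitor, was at 11.6, 11.5, 12.9 and 14.9 CPM in 1d-MI + 3 and at 39.6, 52, 42.5 and 47.9 CPM in 7d-MI + 3. Pmepa1 gave 1.84 ± 0.16 as log2 fold change (SE, adjusted p = 1.5e-07). The inhibitory Smad7 ranged from 5.04 to 7.81 CPM in 1d-MI + 3 and 12 to 19.2 CPM in 7d-MI + 3 (log2 fold change 1.18 ± 0.19 (SE), adjusted p = 9.3e-05). The secreted target Tgfbi ranged from 3.04 to 7.74 CPM in 1d-MI + 3 and 17.9 to 35 CPM in 7d-MI + 3 (log2 fold change 2.41 ± 0.25 (SE), adjusted p = 9.9e-07). All of these held their call without the 2 libraries of highest background.

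Hippo pathway genes and targets of its effector Yap, which drives growth of the neonatal heart and senses stretch, were higher at 18 of 27 and lower at 1 (median 0.72; sham 4 and 2). The difference was positive at 10. Fat1, a giant cadherin upstream of the pathway, was at 82, 77.9, 80.6 and 126 CPM in 1d-MI + 3 and at 229.7, 351, 314 and 310.1 CPM in 7d-MI + 3. For Fat1 the log2 fold change was 1.72 ± 0.17 (SE, adjusted p = 6e-07). The lower member was Tead2, an embryonic DNA-binding partner of Yap (13.5 to 21.7 CPM in 1d-MI + 3 and 8.68 to 14.5 CPM in 7d-MI + 3; log2 fold change -0.58 ± 0.22 (SE), adjusted p = 0.037). It lost its call without the second, the third or the fourth of 1d-MI + 3, or the first or the third of 7d-MI + 3 (highest adjusted p 0.12). BMP genes were higher at 13 and lower at 7 of 37. Bmp7, a ligand of developing heart, was at 15.6, 14.6, 15.9 and 18.2 CPM in 1d-MI + 3 and at 3.14, 3.56, 4.39 and 3.75 CPM in 7d-MI + 3. Bmp7 gave -2.12 ± 0.20 as log2 fold change (SE, adjusted p = 3.4e-07). It was lower in sham too, -2.02 (adjusted p = 3.2e-06), with a difference of -0.09 (adjusted p = 0.88). Notch genes were higher at 10 of 20 and lower at 3. The receptor Notch2 was at 8.44, 9.63, 8.93 and 13 CPM in 1d-MI + 3 and at 31.2, 36.2, 34.4 and 31.7 CPM in 7d-MI + 3. Notch2 gave 1.74 ± 0.15 as log2 fold change (SE, adjusted p = 1.5e-07). Notch3 of mural cells ranged from 7.01 to 8.25 CPM in 1d-MI + 3 and 13.8 to 24.5 CPM in 7d-MI + 3 (log2 fold change 1.38 ± 0.16 (SE), adjusted p = 2.1e-06). The ligand Jag1 ranged from 8.69 to 13.8 CPM in 1d-MI + 3 and 20.7 to 28 CPM in 7d-MI + 3 (log2 fold change 1.14 ± 0.16 (SE), adjusted p = 2e-05). For Notch2 and Jag1 the difference from sham was called, 1.30 (adjusted p = 0.00067) and 1.34 (adjusted p = 0.00087).

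Wnt genes were higher at 11 and lower at 11 of 45, and at 9 and 2 without the 2 libraries of highest background (11 and 9 with the receptor-gene background subtracted). Secreted Wnt inhibitors were among the higher ones. Sfrp1 was at 14, 8.87, 12.1 and 15 CPM in 1d-MI + 3 and at 48.4, 59.1, 42.1 and 46 CPM in 7d-MI + 3. For Sfrp1 the log2 fold change was 1.97 ± 0.17 (SE, adjusted p = 1.3e-07), with no difference detected in sham, 0.14 (adjusted p = 0.57). Frzb, a relative, ranged from 2.52 to 7.64 CPM in 1d-MI + 3 and 11.2 to 19 CPM in 7d-MI + 3 (log2 fold change 1.87 ± 0.26 (SE), adjusted p = 1.9e-05). Immediate early genes were higher at 11 of 29 and lower at 1. Egr1, a factor induced within minutes by growth signals, was at 3.56, 3.57, 2.74 and 2.6 CPM in 1d-MI + 3 and at 12.1, 19.3, 28.6 and 13.1 CPM in 7d-MI + 3. Egr1 gave 2.55 ± 0.32 as log2 fold change (SE, adjusted p = 8.2e-06). Its sham value was -0.98 (adjusted p = 0.05), with a difference of 3.53 (adjusted p = 0.00022).

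Among vessel genes, those of mural cells were mostly higher and those of endothelium were divided. Pericyte and smooth muscle genes were higher at 16 of 24 and lower at 1 (median 1.00, with 9 and 1 in sham). Without the 2 libraries of highest background 12 were higher and 0 lower. The summed level of this list overlapped, at 2787 to 3646 CPM in 1d-MI + 3 and 3040 to 3766 CPM in 7d-MI + 3. Pdgfrb, the mural cell receptor, was at 14.7, 12.1, 13.3 and 21.2 CPM in 1d-MI + 3 and at 60.4, 71.1, 66.6 and 78.4 CPM in 7d-MI + 3. Pdgfrb gave 2.17 ± 0.18 as log2 fold change (SE, adjusted p = 1.3e-07). Smooth muscle myosin, Myh11, ranged from 6.5 to 11.3 CPM in 1d-MI + 3 and 21 to 33.7 CPM in 7d-MI + 3 (log2 fold change 1.76 ± 0.23 (SE), adjusted p = 1.3e-05). The pericyte markers were less separated. Rgs5 ranged from 303 to 559 CPM in 1d-MI + 3 and 485 to 839 CPM in 7d-MI + 3 (log2 fold change 0.48 ± 0.18 (SE), adjusted p = 0.038), and Kcnj8 from 5.09 to 8.79 CPM in 1d-MI + 3 and 8.54 to 11 CPM in 7d-MI + 3 (adjusted p = 0.087). The call of Rgs5 was lost without the second or the fourth of 1d-MI + 3, or the third of 7d-MI + 3 (highest adjusted p 0.19). Kcnj8 gained a call without the fourth of 1d-SHAM + 3, or the third of 1d-MI + 3. Endothelial genes were higher at 13 and lower at 6 of 34, but at 9 and 10 with upper-quartile scaling, and at 11 and 0 in sham. Cdh5, the junctional cadherin, was at 37.6, 38.9, 62.3 and 41.6 CPM in 1d-MI + 3 and at 69.9, 97.1, 157 and 100.3 CPM in 7d-MI + 3. For Cdh5 the log2 fold change was 1.23 ± 0.20 (SE, adjusted p = 7.4e-05), with 0.80 (adjusted p = 0.0072) in sham. Pecam1, another junctional protein, ranged from 65.3 to 112 CPM in 1d-MI + 3 and 115 to 139.7 CPM in 7d-MI + 3 (log2 fold change 0.60 ± 0.14 (SE), adjusted p = 0.0027). Without the 2 libraries of highest background its value was 0.38 (adjusted p = 0.071). In sham Pecam1 rose with age too, 0.58 (adjusted p = 0.008), with a difference of 0.02 (adjusted p = 0.99). The VEGF receptor Kdr ranged from 35.5 to 54.8 CPM in 1d-MI + 3 and 57.7 to 111 CPM in 7d-MI + 3 (log2 fold change 0.85 ± 0.17 (SE), adjusted p = 0.00082). Fabp4, the fatty acid carrier of capillary endothelium, was lower, at 439, 389.7, 668 and 440.4 CPM in 1d-MI + 3 and at 237, 211, 185 and 218 CPM in 7d-MI + 3. Fabp4 gave -1.19 ± 0.16 as log2 fold change (SE, adjusted p = 1.2e-05). VEGF and angiopoietin genes were higher at 15 of 23 and lower at 1, or 8 and 2 with upper-quartile scaling. The lower one was Vegfa, the main ligand, at 77.6, 68.7, 96.2 and 83.8 CPM in 1d-MI + 3 and at 40.6, 53.4, 44.3 and 45 CPM in 7d-MI + 3. Vegfa gave -0.83 ± 0.16 as log2 fold change (SE, adjusted p = 0.00043). The ligand and its receptor Kdr thus differed in opposite directions. The endocardial marker Npr3 (adjusted p = 0.52) and the lymphatic marker Prox1 (0.88), which heart muscle also expresses, did not pass the test.

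Genes of the secretory pathway were higher in the older infarcted hearts. Of 35 unfolded protein response and secretion genes, 30 were higher and 0 lower (median 0.76), against 3 and 0 in sham by edgeR. The difference was positive at 16 (10 with upper-quartile scaling, 9 without the 2 libraries of highest background). Rrbp1, which holds ribosomes on the endoplasmic reticulum, was at 41.3, 36.4, 43.5 and 63.5 CPM in 1d-MI + 3 and at 152, 154, 141 and 163 CPM in 7d-MI + 3. For Rrbp1 the log2 fold change was 1.72 ± 0.15 (SE, adjusted p = 1.7e-07). Edem1, which directs misfolded glycoproteins to degradation, ranged from 15.3 to 29.9 CPM in 1d-MI + 3 and 52 to 64.2 CPM in 7d-MI + 3 (log2 fold change 1.42 ± 0.17 (SE), adjusted p = 3.5e-06). No difference by age was detected in sham for Rrbp1, 0.18 (adjusted p = 0.41), or for Edem1 (adjusted p = 0.99). Lysosomal genes were higher at 29 of 40 and lower at 0 (median 0.93; sham 16 and 0). Progranulin, Grn, which regulates lysosomes, was at 13.7, 10.2, 10.9 and 15.8 CPM in 1d-MI + 3 and at 56.2, 59.4, 50.3 and 47.7 CPM in 7d-MI + 3. Grn gave 2.08 ± 0.18 as log2 fold change (SE, adjusted p = 1.6e-07). Ribosomal proteins divided by compartment. Cytosolic ones were higher at 26 of 82 and lower at 1 (median 0.32), but 3 were higher without the 2 libraries of highest background. Rplp2, of the ribosomal stalk, ranged from 9.87 to 14.4 CPM in 1d-MI + 3 and 20.5 to 28.2 CPM in 7d-MI + 3 (log2 fold change 1.09 ± 0.22 (SE), adjusted p = 0.00082). Mitochondrial ones were lower at 31 of 74 and higher at 3 (median -0.32), and 31 were lower also without these libraries. In sham 7 of the 74 were lower and 5 higher.

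Among fuel-handling genes outside fatty acid oxidation, the transporter Slc2a1 and the hexokinase Hk2 were higher and the pyruvate dehydrogenase kinases Pdk4 and Pdk1 lower. Glycolysis and glucose uptake genes were higher at 13 and lower at 3 of 33 (sham 9 and 6), and at 6 and 4 with upper-quartile scaling. Slc2a1, the fetal and injury-induced glucose transporter, was at 7.48, 10.4, 6.69 and 10.8 CPM in 1d-MI + 3 and at 13, 20.7, 11 and 16.2 CPM in 7d-MI + 3. Slc2a1 gave 0.79 ± 0.23 as log2 fold change (SE, adjusted p = 0.0088). It fell with age in sham, -1.28 (adjusted p = 0.0011). The insulin-responsive transporter Slc2a4 ranged from 7.39 to 12.8 CPM in 1d-MI + 3 and 9.19 to 26.8 CPM in 7d-MI + 3 (adjusted p = 0.22). Hk2, the inducible hexokinase, was at 28.7, 22.8, 28.9 and 22.6 CPM in 1d-MI + 3 and at 56.4, 57.5, 95.5 and 54.2 CPM in 7d-MI + 3. For Hk2 the log2 fold change was 1.36 ± 0.18 (SE, adjusted p = 1e-05), with 0.87 (adjusted p = 0.0019) in sham. Hk1, the constitutive one, ranged from 57.5 to 96.2 CPM in 1d-MI + 3 and 98.1 to 152 CPM in 7d-MI + 3 (log2 fold change 0.71 ± 0.17 (SE), adjusted p = 0.0025). Per kb of exon, Hk1 made up 66.2% ± 2.9 (SD, n = 4) of the hexokinase pair in 1d-MI + 3 and 56.4% ± 3.4 in 7d-MI + 3 (exact permutation p = 0.029, adjusted 0.051). The phosphofructokinases Pfkp (adjusted p = 0.14) and Pfkm (0.098) did not pass, although Pfkm did without the third of 1d-MI + 3, or the second of 7d-MI + 3. Pyruvate dehydrogenase kinases restrict the entry of pyruvate into the citric acid cycle. Pdk4 was at 111, 192, 282 and 223 CPM in 1d-MI + 3 and at 36, 73.7, 68.4 and 105 CPM in 7d-MI + 3. Pdk4 gave -1.51 ± 0.37 as log2 fold change (SE, adjusted p = 0.0044). Pdk1 ranged from 148 to 235 CPM in 1d-MI + 3 and 64.7 to 87.9 CPM in 7d-MI + 3 (log2 fold change -1.29 ± 0.21 (SE), adjusted p = 0.00012). In sham Pdk4 rose with age, 1.38 (adjusted p = 0.017), and the difference was -2.89 (adjusted p = 0.0025).

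Cholesterol genes were higher at 6 and lower at 7 of 29, against 2 and 16 in sham. The sterol synthesis enzyme Cyp51 ranged from 25.9 to 55 CPM in 1d-MI + 3 and 17.2 to 24.7 CPM in 7d-MI + 3 (log2 fold change -0.86 ± 0.20 (SE), adjusted p = 0.0026). Iron and heme genes were higher at 9 and lower at 3 of 29 (sham 9 and 0). Hmox1, heme oxygenase, which breaks down heme, was at 5.11, 6.61, 5.82 and 11.6 CPM in 1d-MI + 3 and at 57.2, 53.5, 22.3 and 51.8 CPM in 7d-MI + 3. Hmox1 gave 2.66 ± 0.34 as log2 fold change (SE, adjusted p = 1.8e-05), with -0.05 (adjusted p = 0.93) in sham. The third 7d-MI + 3 library was the lowest of its group. The iron store Fth1 ranged from 233 to 247 CPM in 1d-MI + 3 and 489.7 to 589 CPM in 7d-MI + 3 (log2 fold change 1.15 ± 0.18 (SE), adjusted p = 5.7e-05). Trim55, a muscle ubiquitin ligase of the sarcomere, was lower, at 107, 165, 204 and 169 CPM in 1d-MI + 3 and at 54.7, 51.3, 61.5 and 54.1 CPM in 7d-MI + 3. For Trim55 the log2 fold change was -1.54 ± 0.16 (SE, adjusted p = 6.5e-07). It belongs to a list of 29 ubiquitin ligase and autophagy genes, of which 7 were higher and 5 lower (5 and 6 with upper-quartile scaling).

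Markers of other cell types were mostly low. Alas2, the erythroid heme synthesis enzyme, ranged from 14.7 to 31.5 CPM in 1d-MI + 3 and 41.8 to 56.8 CPM in 7d-MI + 3 (log2 fold change 1.18 ± 0.23 (SE), adjusted p = 0.00057), with 1.36 (adjusted p = 0.00046) in sham. Hbb-bt, also of red cells, did not pass (adjusted p = 0.79). The epicardial and mesothelial markers Wt1 (7.94 to 12 CPM in 1d-MI + 3 and 5.9 to 9.68 CPM in 7d-MI + 3), Upk3b and Msln did not pass (adjusted p = 0.2, 0.87 and 0.72). The T cell markers Cd3e and Rag1, the mast cell marker Cpa3 and the B cell marker Cd79a stayed at or below 2.04 CPM. None of them passed (adjusted p from 0.2 to 0.98). The platelet chemokine Pf4 ranged from 1.25 to 2.79 CPM in 1d-MI + 3 and 2.39 to 5.82 CPM in 7d-MI + 3 (log2 fold change 1.24 ± 0.37 (SE), adjusted p = 0.011). Its value was 1.0 (adjusted p = 0.13) without the 2 libraries of highest background. Adipoq, Ucp1 and Myod1 did not pass the filter on low counts. Plin1, of fat cells, had an adjusted p of 0.064 that fell below 0.05 without the second or the third of 1d-SHAM + 3, or the third of 1d-MI + 3, or the second of 7d-MI + 3. The lung gene Sftpc reached 8.03 CPM in the third 7d-MI + 3 library. The liver gene Alb was at 26.1 CPM in the first of 1d-MI + 3 and at 25.1 CPM in the second of 7d-MI + 3, with at most 5.76 CPM elsewhere. It was called lower without the latter.

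The neuronal, T cell and skeletal muscle lists held more genes called lower than higher. Genes lower in 7d-MI + 3 made up 11 of 30 for T and NK cells, 14 of 22 for neurons and 16 of 24 for skeletal muscle, and 2, 8 and 5 without the 2 libraries of highest background. With the receptor-gene background subtracted they were 9 of 30, 13 of 20 and 15 of 23. Of all genes tested, 23.5% were lower. Of the 5417 with a mean under 1 CPM in the higher group, 1768 were lower and 15 higher. The 30 T and NK cell genes summed to 16.7 to 45.5 CPM in 1d-MI + 3. Their share of lower calls was near that of such low-level genes and is not read as a change of T cells. The list medians were -1.26, -2.09 and -3.05, and without the 2 libraries -0.14, -1.59 and -1.97. Tyrosine hydroxylase, Th, of sympathetic neurons, had 1.11, 1.18, 0.159 and 0.53 CPM in 1d-MI + 3 and no count in 7d-MI + 3. Embryonic myosin, Myh3, had 2.81, 3.53, 0.318 and 1.24 CPM and no count. In 1d-MI + 3 the counts were 53, 53, 8 and 30 for Th and 134, 158, 16 and 70 for Myh3. In CPM without TMM scaling, the 1d-MI + 3 means were 56.8-fold and 151-fold a floor of 3 counts over 7d-MI + 3. Both genes were highest in the first and second 1d-MI + 3 libraries, which raise these means. Sox10 of glia and Itga2b of platelets were called lower, but had adjusted p of 0.45 and 0.76 without these 2 libraries. Each lost its call without 5 of the 8 infarcted libraries taken singly.

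Genes that the study had singled out in these hearts were examined in the same way. Lef1, a nuclear effector of Wnt signals, ranged from 0.655 to 3.04 CPM in 1d-MI + 3 and 0.541 to 0.78 CPM in 7d-MI + 3 (log2 fold change -1.55 ± 0.54 (SE), adjusted p = 0.025), but gave -0.77 (adjusted p = 0.4) without the 2 libraries of highest background. Its call was also lost without the first or the second of 1d-MI + 3, or the second or the fourth of 7d-MI + 3. Nog, the BMP antagonist noggin, ranged from 0.424 to 1.3 CPM in 1d-MI + 3 and 0 to 0.149 CPM in 7d-MI + 3 (log2 fold change -3.40 ± 1.15 (SE), adjusted p = 0.022), but gave -2.50 (adjusted p = 0.24) without these 2 libraries. The Nog call was lost too without the first or the second of 1d-MI + 3, or the second or the third of 7d-MI + 3. Ofd1, a centriole and cilium gene that the study lists with a clone identifier, was matched here by its symbol alone. Its groups overlapped (13.7 to 21.4 CPM in 1d-MI + 3 and 11.2 to 15.3 CPM in 7d-MI + 3; log2 fold change -0.39 ± 0.15 (SE), adjusted p = 0.041). Its call was lost without the third of 1d-SHAM + 3, or the first, the third or the fourth of 1d-MI + 3, or any library of 7d-SHAM + 3, or the first, the second or the third of 7d-MI + 3. The predicted gene Gm10801 held 1318, 1017, 122 and 209 CPM in 1d-MI + 3 and 0.408, 0.541, 0.235 and 0.434 CPM in 7d-MI + 3. Gm10722 held 8.5, 24.2, 3.71 and 5.23 CPM in 1d-MI + 3 and at most 0.0928 CPM in 7d-MI + 3. Gm11168 held 5.13, 16, 2.34 and 2.69 and at most 0.0193 CPM. All 3 were highest in the first or second 1d-MI + 3 library, those of highest background. In 1d-SHAM + 3 the first and second libraries, which also had the higher receptor-gene sums (71.9 and 68.9 CPM), held 263 and 350.2 CPM of Gm10801. The other 2 held 0.576 and 0.899 CPM. The part of the background in these 3 genes was not tested.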

How the data were processed

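Ribosome-depleted total RNA (TruSeq stranded total RNA kit) of the remote left ventricular wall was sequenced as paired reads, and the submitters' processing notes list TopHat2 2.0.11, Bowtie2 2.2.2 and Cufflinks 2.2.1. The authors deposited whole-number read counts per gene on GRCm38 for each library, beside normalised columns that were not used. The sources used here name neither the counting program nor its strand setting. The 16 libraries of the 3-day follow-up were fitted together with 4 group means. TMM scaling, filterByExpr (20345 of 45318 gene rows kept) and the robust quasi-likelihood test of edgeR 4.0.16 were used, with Benjamini-Hochberg adjustment over all genes tested and a threshold of 0.05. SE is the size of the log2 fold change divided by the square root of F. CPM use TMM-scaled library sizes. Libraries held 33077962 to 51942648 counts.

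Named genes were the 10 largest changes in each direction outside inflammation, oxidative phosphorylation and fatty acid genes, up to 4 members of smallest p in each direction from each list, marker genes of each cell type, the isoform pairs and genes the study singled out; some of these are not reported here. The members and lists were chosen with earlier results of these data known. The scripts were tested on simulated data: of 200 genes changed by known fold changes between the 2 infarcted groups, 69 of 100 with a log2 change of 1 and 91 of 100 with a log2 change of 2 were called, all with the right sign, and 8 of 19211 unchanged genes were called. The changed genes were drawn from those above 1 CPM, and all other genes had a common mean in all groups. The simulation held no difference in background between groups, so it does not show how often low-level calls are false. Promoters were read from RefSeq, GRCm38.p6, the build of the deposited coordinates. Alternatives were RLE and upper-quartile scaling, no filter and a stricter one, DESeq2 1.42.0, limma-voom 3.58.1 with and without the mouse name prefix as a random effect, the 2 compared groups alone, the 20 most abundant genes left out, a minimum fold change, and each library left out in turn. Background subtraction, leaving out the 2 libraries of highest background and leaving out mitochondrial transcripts were added after seeing the data.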

Additional observations from a re-analysis of the deposited data

Results flagged for a closer look

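The age difference, older minus younger, differed between infarcted and sham-operated hearts by the test of that difference (edgeR, adjusted p under 0.05) at the named genes that follow, given as the difference of the 2 log2 fold changes. Among the largest changes between the infarcted groups these were Acta1 (2.93), Ccn5 (3.74), Apol7d (2.27), Ltbp2 (2.79), Col1a1 (1.97), Adam8 (4.20) and Igf2os (-1.35). In cell division they were Mki67 (2.43), Foxm1 (2.64), Ncapg2 (1.95), Spc25 (1.23), Depdc1a (1.34), Mcm6 (1.67), Hist1h3e (2.17), Hist1h1c (1.17), Cdk6 (0.74), Myc (1.80) and Cdkn1c (-0.94). In heart muscle they were Myh7 (1.69), Myl2 (-0.71), Tnnt2 (-0.99), Casq2 (-1.22), S100a1 (-1.34), Kcne1 (-1.44), Hey2 (1.05), Klf15 (-2.22), Gata6 (-0.70) and Trim55 (-0.90), all but Myh7 and Hey2 with a more negative age difference after MI. Myh3 (-7.21) belongs here too, but it had no count in 7d-MI + 3 and its fitted value is no bound. Growth factor and fetal genes gave Peg10 (2.23), Igf2bp1 (1.57), Igf1r (0.98), Egfr (1.16), Hbegf (1.41), Ereg (4.15) and Fgfr1 (1.26). Signalling genes gave Pmepa1 (1.06), Tgfbr2 (1.05), Tgfbi (1.37), Eng (1.41), Notch2 (1.30), Jag1 (1.34), Sfrp1 (1.83), Frzb (2.36), Fat1 (1.30) and Egr1 (3.53). Matrix, fibroblast and cytoskeletal genes gave Col6a3 (0.95), Col5a1 (1.25), Col15a1 (0.92), Fn1 (1.86), Tnc (2.76), Vcan (1.83), Bgn (1.41), Lox (2.13), Plau (1.98), Adam12 (2.04), Postn (1.17), Cthrc1 (2.04), Tcf21 (1.30), Actb (1.78) and Myh9 (1.56). Vessel genes gave Pdgfrb (1.02), Myh11 (1.19), Kdr (0.80) and Fabp4 (-0.86), and cell machinery, metabolic and myeloid genes gave Rrbp1 (1.54), Edem1 (1.42), Grn (1.08), Hmox1 (2.71), Slc2a1 (2.07), Pdk4 (-2.89), Ccr2 (3.00) and S100a8 (1.75).

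In 29 of 316 groups of 4 libraries tested, 1 library lay apart from the other 3 by more than Dixon's 95% limit, and chance alone would mark about 1 in 20 groups. Each value is given with whether it was the highest or lowest of its group. In the first library of 1d-MI + 3 this was Gbp4 (52.2 CPM, the highest). In the second library of 1d-MI + 3 these were Tpm3-rs7 (6.68 CPM, the highest), Xirp2 (512 CPM, the lowest) and Casq2 (1270.1 CPM, the lowest). In the third library of 1d-MI + 3 these were Bex4 (11.5 CPM, the highest) and Cdh5 (62.3 CPM, the highest). In the fourth library of 1d-MI + 3 these were Myl7 (5.97 CPM, the highest), Fat1 (126 CPM, the highest), Col5a1 (80.7 CPM, the highest), Fn1 (544 CPM, the highest), Pf4 (2.79 CPM, the highest) and Adgre1 (14.1 CPM, the highest). In the first library of 7d-MI + 3 these were Mcm6 (49.8 CPM, the highest), Igf1r (30.2 CPM, the lowest), Bgn (234 CPM, the lowest) and Sox10 (0.408 CPM, the highest). In the second library of 7d-MI + 3 these were Plin1 (0.271 CPM, the highest), Alb (25.1 CPM, the highest) and Gm11168 (0.0193 CPM, the highest). In the third library of 7d-MI + 3 these were Mroh2a (1.21 CPM, the highest), Ttn (42055 CPM, the highest), Rgs5 (839 CPM, the highest), Prox1 (91.8 CPM, the highest), Hmox1 (22.3 CPM, the lowest), Hk2 (95.5 CPM, the highest), Slc2a4 (26.8 CPM, the highest) and Sftpc (8.03 CPM, the highest). In the fourth library of 7d-MI + 3 these were Myh7 (412 CPM, the highest) and Bmp10 (0.0868 CPM, the highest).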

How the results depend on the processing

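No paired analysis was possible because the 3-day mouse names hold letters and no replicate numbers, and each name prefix holds libraries of 1 group only; no fit with a replicate block was made. The medians of the 15 lists followed here kept their sign with each alternative, and no called named gene changed direction. Of 158 named genes tested 136 were called, and 109 stayed called with each alternative, while 20 lost the call without the 2 libraries of highest background, 14 when a single library was left out and 10 with the name prefix as a random effect.

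Against 8745 genes called between the infarcted groups, a fit without the 2 libraries of highest background called 5206 (2536 lower), and 4762 were called with a log2 fold change of at least 1 (1417 higher). Upper-quartile scaling called 2506 higher, no filter 8549 lower and the stricter filter 3040 lower, the last because fewer genes were tested. In sham, limma-voom called 1515 lower, and with the prefix as a random effect 1221 in all, 637 higher and 584 lower. The difference of the age difference was called at 864 genes (609 positive, 255 negative) with that random effect and at 1331 (851 and 480) without the 2 libraries. It was positive at 1019 and negative at 1753 with upper-quartile scaling, and negative at 1322 with the stricter filter and at 1570 with DESeq2. With 1 library left out, calls ranged from 7273 to 10150.0 between infarcted groups (3335 to 4121 higher, 3938 to 6029 lower), from 2339 to 5137 in sham (995 to 1764 and 1331 to 3373, the lowest totals without the second and the highest without the fourth 1d-SHAM + 3 library) and from 1826 to 2810 for the difference (1317 to 1978 and 509 to 866).

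List medians under upper-quartile scaling were -0.53 for cardiac transcription factors, -0.90 for imprinted genes, 1.00 for TGF-beta, 0.48 for Hippo, 0.41 for VEGF (8 higher), 0.77 for pericytes, 0.029 for collagens, 0.95 for matricellular proteins, 0.70 for lysyl oxidases, -0.56 for mitochondrial ribosomal proteins (48 lower), 0.53 for the unfolded protein response and 0.69 for lysosomes. The stricter filter gave 1.10 for TGF-beta, 0.58 for Hippo, 0.51 for VEGF, 0.91 for collagens, 0.80 for lysyl oxidases and -0.46 for mitochondrial ribosomal proteins. Imprinted genes had -0.56 in a fit of the 2 infarcted groups alone and -0.79 without the 2 libraries of highest background, where collagens had 0.57, actin genes 18 higher and the unfolded protein response 19 higher. Mitosis had 7 lower with the random effect. With 1 library left out, mitosis had 5 to 21 lower members, and the medians ranged from -0.39 to -0.15 for cardiac factors, from -0.76 to -0.56 for imprinted genes and from 0.11 to 0.49 for collagens. Where no reason is given, the cause was not tested.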

Other observations

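Gene lists that the comparisons above do not describe are given here as counts of members higher and lower in the older infarcted hearts, out of those tested, with no explanation. Semaphorin and guidance genes, which steer growing axons and vessels, were higher at 25 and lower at 4 of 41 (17 and 1 without the 2 libraries of highest background). Genes of blood coagulation and its control were higher at 11 and lower at 2 of 26, and genes of the pentose phosphate pathway and nucleotide synthesis at 12 and 3 of 32 (8 and 7 with upper-quartile scaling). Ribosome biogenesis genes were higher at 16 and lower at 2 of 40. Hedgehog and cilium genes were lower at 12 and higher at 5 of 43, and at 5 and 3 without these libraries, and conduction system genes were divided, 5 higher and 6 lower of 17. Chromatin and DNA methylation genes were higher at 9 and lower at 9 of 40 after MI, while in sham 1 was higher and 19 were lower.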
